A study of Mus musculus with 4 samples.

Results

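The 9 genes described here mark pancreatic duct cells or carry out their bicarbonate secretion, and their RNA was counted in 4 mouse pancreas libraries. They are Sox9, Onecut1, Onecut2, Hes1, Pkhd1, Bicc1, Cftr, Car2 and Slc4a4. They were chosen by name as 9 of the 55291 gene symbols in the count files, all 9 were present in every file, and all 9 passed the filter on low counts. The 2 libraries labelled knockout came from Pdx1-Cre+, poh1f/f mice and the 2 labelled control from Pdx1-Cre+, poh1f/+ mice, so every mouse carried the Cre transgene and at least 1 floxed copy of poh1. Pdx1-Cre is active in the progenitors that give rise to acinar, duct and islet cells, and also in cells of the neighbouring gut, so blood vessels, fibroblasts and immune cells of the tissue keep the gene. No source used here gives the age, sex or strain of the mice, or states that the libraries are from different animals. The p-values therefore rest on the variation among 4 libraries, some of which may be technical.

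Pancreatic ducts line the channels through which digestive enzymes leave the gland, and they rinse them with a bicarbonate-rich fluid. Bicarbonate enters the duct cell from the blood side through the sodium-coupled transporter NBCe1 (Slc4a4) or is made inside it by carbonic anhydrase II (Car2), and it leaves on the lumen side by way of CFTR (Cftr), a channel opened by cyclic AMP, together with anion exchangers. The identity of these cells is tied to the transcription factors SOX9 and HNF6 (Onecut1) and to the Notch target HES1. Their primary cilium, which senses flow, carries fibrocystin (Pkhd1), and loss of fibrocystin or of the RNA-binding protein bicaudal C (Bicc1) leads to cysts in mice.

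Promoter sequences are shown for Pkhd1, which was lower in the libraries labelled knockout, and for Cftr, for which no change was called. RefSeq's promoter table (GRCm38.p6, 250 bases before to 50 after the start) held 4 of the 9 genes. The Pkhd1 promoter lies at chr1:20618008-20618307 on the minus strand and the Cftr promoter at chr6:18170437-18170736 on the plus strand. Capitals mark a match to TGACATCA, a variant of the cyclic AMP response element known from the human CFTR promoter, in Cftr.
Pkhd1: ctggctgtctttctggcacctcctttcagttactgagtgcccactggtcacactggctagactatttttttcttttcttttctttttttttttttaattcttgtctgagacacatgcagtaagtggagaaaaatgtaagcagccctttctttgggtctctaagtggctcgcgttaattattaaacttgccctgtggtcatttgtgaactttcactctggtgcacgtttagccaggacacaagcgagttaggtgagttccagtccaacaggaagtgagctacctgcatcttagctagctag
Cftr: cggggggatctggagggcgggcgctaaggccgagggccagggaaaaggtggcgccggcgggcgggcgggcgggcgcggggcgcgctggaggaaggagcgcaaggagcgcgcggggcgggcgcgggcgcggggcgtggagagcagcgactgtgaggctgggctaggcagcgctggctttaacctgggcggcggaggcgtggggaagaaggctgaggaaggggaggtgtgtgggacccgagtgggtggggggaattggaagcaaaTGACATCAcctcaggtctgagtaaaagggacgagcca
G and C made up 43.3% of the Pkhd1 sequence and 71.3% of the Cftr sequence. TGACATCA was searched on both strands, and Cftr held 1 match, on the strand printed, from base 264 to 271, with the annotated start at base 251. The motif stood in 1189 of the table's 32851 promoters, or 3.62%, and not in these letters in Pkhd1. A match describes letters only and is not evidence of binding.

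The targeted gene was read first. Psmd14 is the current name of poh1, whose product cuts ubiquitin chains from proteins at the proteasome. It had 1839 and 1906 counts in the libraries labelled knockout, against 1354 and 1265 in those labelled control. In CPM, which are counts scaled to a common library size with TMM factors, this was 65.6 ± 0.444 CPM in libraries labelled knockout and 57.3 ± 6.13 CPM in libraries labelled control (SD, n = 2 each), a log2 fold change of 0.20 ± 0.11 (SE; edgeR adjusted p = 0.259). The RNA count of the targeted gene was thus not lower under the knockout label, so the directions given here hold between the labels. The libraries held 22875618 to 27849730 counts, and 1 count equalled 0.0342 to 0.0455 CPM.

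Marker genes of other cell types differed between the same libraries. Summed over 12 lymphocyte markers, the level was 2046 and 1670 CPM in libraries labelled knockout, against 158 and 111 CPM in libraries labelled control. The 8 adipocyte markers summed to 3144 and 2324 CPM under the knockout label, against 293 and 652 CPM. Lower under the knockout label were 12 acinar markers (220 and 655, against 11568 and 2549 CPM), 12 islet markers (482 and 195, against 1896 and 1096 CPM), 9 fibroblast markers (10581 and 9294, against 26187 and 30165 CPM) and 8 macrophage markers (2595 and 2360, against 3934 and 3589 CPM). The second knockout library stands apart: its 12 enterocyte markers summed to 933 CPM, against 143 CPM in knockout replicate 1 and 308 and 278 CPM in the controls. Sis, the intestinal sucrase, was at 85.9 CPM in that library and at 0 counts in the other 3. Erythroid markers summed to 143 and 326 CPM under the knockout label and 26.5 and 110 CPM under the control label. Nerve and glia markers summed to 191 and 205, against 104 and 123 CPM, endothelial markers to 998 and 911, against 555 and 792 CPM, and mesothelial markers to 356 and 222, against 222 and 285 CPM. The hepatocyte list summed to 680 and 1056, against 78.1 and 240 CPM, most of it Cyp2e1, while albumin (Alb) was between 0.479 and 2.18 CPM. Gastric markers stayed between 2.4 and 8.49 CPM and kidney markers between 1.16 and 1.93 CPM in the 4 libraries. The most abundant marker was Ctrb1, Ins2, Jchain, Csf1r, Col3a1, Fabp4, Anpep, Muc6, Cyp2e1, Upk3b, Hbb-bs, Pecam1 and Mbp for acinar, islet, lymphocyte, macrophage, fibroblast, adipocyte, enterocyte, gastric, hepatocyte, mesothelial, erythroid, endothelial and nerve cells in that order. In RNA of whole tissue, fewer cells of a type and less RNA per cell cannot be told apart, and the part of these shifts in the results below was not tested except where a value is given.

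Calls were not spread evenly over the roles of the 9 genes, and the difference between roles was not tested. Of the 4 transcription factors 3 were called lower in the libraries labelled knockout, as were both cilium and cyst genes, while none of the 3 bicarbonate secretion genes was called. Since 9.95% of all tested genes were called lower and 12.1% higher, no call among 3 genes is near those shares. Of the 9 genes, 5 fell (Sox9, Onecut2, Hes1, Pkhd1 and Bicc1; edgeR adjusted p under 0.05), where 9.95% of all 19134 tested genes fell. Of the 9, edgeR called 0 higher, where 12.1% of all tested genes were, so this count is near that share. At an unadjusted p under 0.05 edgeR also had 0 higher, and DESeq2 and limma-voom called 0. In 6 of the 9, both libraries labelled knockout were below both labelled control, a pattern that 33.7% of all tested genes showed. The median log2 fold change of the 9 genes was −1.05, and that of all tested genes 0.00. Without control replicate 1 the number that fell was 3, since the calls of Hes1 and Bicc1 were lost; without the other libraries in turn it was 4 or 5.

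**Figure D1:**
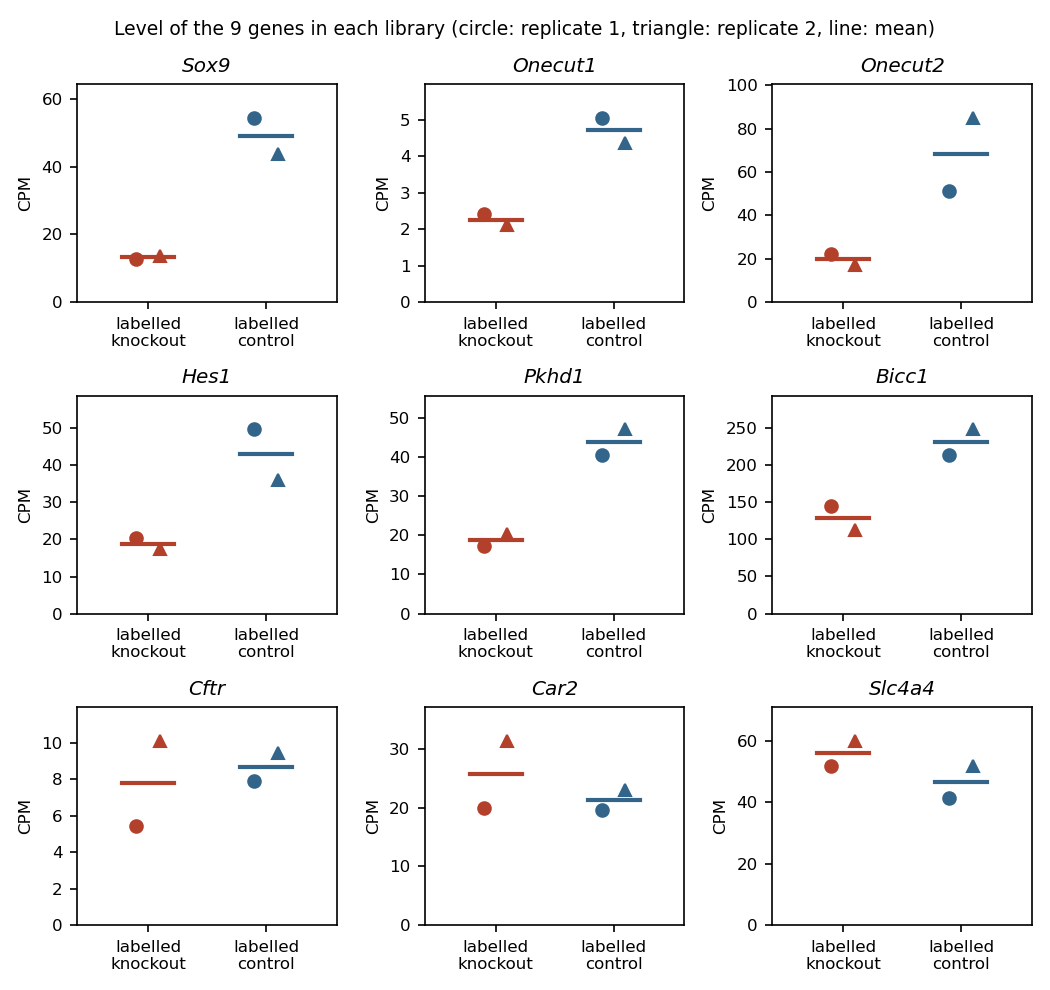
Level of each of the 9 genes in CPM (linear axis from 0) in the 2 libraries labelled knockout (red, left) and the 2 labelled control (blue, right), with circles for replicate 1, triangles for replicate 2 and a line at the mean. The groups are apart in the upper 6 panels and overlap for Cftr, Car2 and Slc4a4; Sox9, for example, is at 12.8 and 13.6 CPM under the knockout label and at 54.5 and 43.9 CPM under the control label.

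SOX9 maintains pancreatic progenitors and persists in adult duct cells. Sox9 lies on the plus strand of chromosome 11 (GRCm38, 112782224 to 112787760). Its counts were 356 and 397 in libraries labelled knockout, against 1199 and 1049 in libraries labelled control. This was 12.8 and 13.6 CPM under the knockout label, against 54.5 and 43.9 CPM under the control label. The knockout libraries lay close together and far below both controls. On the log2 scale Sox9 fell by 1.90 ± 0.16, to 26.8% of the control level (95% interval −2.30 to −1.50; edgeR adjusted p = 0.00388). The call held with each library left out, with log2 fold changes from −2.05 to −1.73.

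Onecut1 and Onecut2 encode paralogous factors with a cut domain and a homeodomain, and HNF6, the product of Onecut1, is needed for normal duct development and ciliation in mice. Onecut2 (chromosome 18, 64340020 to 64400987, plus strand) was at 22.1 and 17.2 CPM in libraries labelled knockout, against 51.3 and 85.1 CPM in libraries labelled control. The groups did not overlap, although the controls themselves differed. On the log2 scale Onecut2 fell by 1.80 ± 0.28 (edgeR adjusted p = 0.0153), and by 1.38 without control replicate 2, the higher control, where the call held. Onecut1 (chromosome 9, 74861921 to 74891781, plus strand) was at 2.4 and 2.12 CPM under the knockout label, from 67 and 62 counts, against 5.05 and 4.35 CPM under the control label, from 111 and 104 counts. Both knockout libraries were below both controls, at the lowest counts of the 9 genes. In GENCODE M21, 2171 of its 4113 exon bases also belong to Gm20649, a lincRNA on the same strand with 0 counts in every library, and no source states how reads in the shared bases were assigned. Its log2 fold change was −1.05 ± 0.28 (95% interval −1.76 to −0.35), and it missed the threshold narrowly (edgeR adjusted p = 0.0517). DESeq2 (adjusted p = 0.0391) and limma-voom (adjusted p = 0.0446) did call it lower. Onecut2 counts per Onecut1 count in the same library were 9.22 and 8.08 under the knockout label and 10.2 and 19.6 under the control label.

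Hes1 encodes a repressor that Notch signalling switches on and that holds back endocrine and acinar differentiation. The gene (chromosome 16, 30064384 to 30067796, plus strand) was at 20.3 and 17.3 CPM in libraries labelled knockout, against 49.8 and 36.2 CPM in libraries labelled control. The lower control was still well above both knockout libraries. Hes1 fell by 1.19 ± 0.20 on the log2 scale, to 43.7% of the control level (edgeR adjusted p = 0.0177). Without control replicate 1 the log2 fold change was −0.94 and the call was lost (edgeR adjusted p = 0.0677).

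Both cilium and cyst genes were lower under the knockout label. Pkhd1 (chromosome 1, 20057779 to 20618064, minus strand) was at 17.3 and 20.4 CPM in libraries labelled knockout, against 40.5 and 47.2 CPM in libraries labelled control. Replicates of each group were close and the groups were apart. Pkhd1 fell by 1.22 ± 0.15 on the log2 scale, to 43% of the control level (edgeR adjusted p = 0.00943), and the call held with each library left out. Pkhd1 is also a kidney gene, and the summed kidney markers given above were under 2 CPM in every library. The part of kidney RNA in the Pkhd1 counts was not tested.

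Bicc1 (chromosome 10, 70922832 to 71159700, minus strand) was the most abundant of the 9 genes. It was at 145 and 112 CPM in libraries labelled knockout, against 213 and 248 CPM in libraries labelled control. The groups did not overlap, and its log2 fold change was the smallest of the 6 genes whose groups were apart. Bicc1 fell by 0.85 ± 0.17 on the log2 scale, to 55.6% of the control level (edgeR adjusted p = 0.0267). The call was lost without knockout replicate 2 (edgeR adjusted p = 0.0801), without control replicate 1 (0.0793) and without control replicate 2 (0.0873), with log2 fold changes of −0.67, −0.95 and −0.73. Bicc1 and Hes1 are also transcribed outside ducts. Of the 9 fibroblast markers, 7 fell in the same libraries, with a median log2 fold change of −1.42, and their part in the lower Bicc1 and Hes1 counts was not tested.

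**Figure D2:**
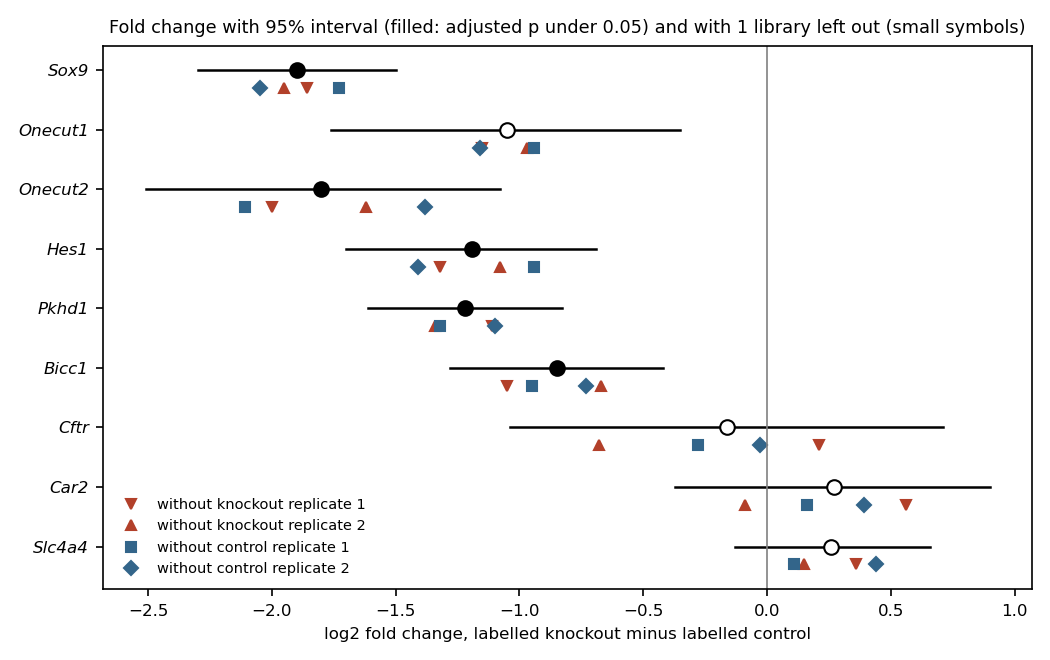
Log2 fold change, labelled knockout minus labelled control, of the 9 genes (large circles with 95% intervals; filled where the edgeR adjusted p is under 0.05) and the same value with 1 library left out (small symbols below each bar). For the 6 upper genes the values stay below 0, for Sox9 from −2.05 to −1.73 with a library left out, whereas those of Cftr and Car2 fall on both sides of 0.

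None of the 3 secretion genes passed the threshold. Slc4a4 (chromosome 5, 88886818 to 89239653, plus strand) was at 51.9 and 60.1 CPM in libraries labelled knockout, against 41.3 and 52 CPM in libraries labelled control. The lower knockout library and the higher control library were almost level. Its log2 fold change was 0.26 ± 0.15 (edgeR adjusted p = 0.271), with a 95% interval from −0.13 to 0.66. That interval lies wholly above the interval of Sox9. RefSeq's table holds 2 starts of Slc4a4, known to give the pancreatic and the renal form of the transporter, and counts per gene do not separate them.

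Car2 (chromosome 3, 14886273 to 14900770, plus strand) was at 19.9 and 31.4 CPM in libraries labelled knockout, against 19.6 and 23 CPM in libraries labelled control. Knockout replicate 1 lay between the controls and replicate 2 above them. The log2 fold change was 0.27 ± 0.25 (95% interval −0.37 to 0.90; edgeR adjusted p = 0.475). Cftr (chromosome 6, 18170687 to 18322768, plus strand) was at 5.41 and 10.1 CPM in libraries labelled knockout, against 7.91 and 9.41 CPM in libraries labelled control. The knockout libraries lay on either side of the controls, so the spread under the knockout label exceeded the difference between labels. The log2 fold change was −0.16 ± 0.34 (95% interval −1.04 to 0.71; edgeR adjusted p = 0.764), which allows a fall as well as a rise.

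Cftr, Car2 and Slc4a4 were all higher in knockout replicate 2, the library with enterocyte RNA, than in knockout replicate 1. CFTR, carbonic anhydrase II and NBCe1 are also made by the intestinal epithelium. Without that library the log2 fold change was −0.68 for Cftr (edgeR adjusted p = 0.218), −0.09 for Car2 (0.861) and 0.15 for Slc4a4 (0.72). Without knockout replicate 1 the values were 0.21, 0.56 and 0.36, and none passed the threshold. The direction of Cftr and of Car2 therefore turned with the knockout library used. Car2 is also abundant in red blood cells, and the erythroid marker sum given above was highest in knockout replicate 2 as well; the part of either source was not tested.

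Ratios of counts within a library do not depend on how libraries are scaled, and they were taken after the values above were seen. Per count of Sox9, Slc4a4 had 4.07 and 4.43 counts in libraries labelled knockout, against 0.758 and 1.19 in libraries labelled control. Car2 had 1.56 and 2.31 counts per Sox9 count, against 0.359 and 0.524, and Cftr 0.424 and 0.741, against 0.145 and 0.214. All 3 ratios were higher in both libraries labelled knockout, also without the library that carried enterocyte RNA, and the ratios of the group geometric means were 4.48 for Slc4a4, 4.38 for Car2 and 3.18 for Cftr. Sox9 was taken as the base with its own fall known, and per count of Pkhd1 the same ratios were smaller, at 2.81 for Slc4a4, 2.75 for Car2 and 1.99 for Cftr, again with both knockout libraries above both controls. An exact two-sided permutation test of 2 against 2 libraries gave p = 0.333 for each of the 6, the smallest it can give.

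Set against Epcam, a surface protein of epithelial cells that itself fell by 1.67 ± 0.28 (edgeR adjusted p = 0.0184), the 9 genes took different positions. Epcam is also made by gut epithelium and was at 59.7 and 103 CPM in libraries labelled knockout, against 284 and 233 CPM in libraries labelled control, the higher knockout value being that of the library with enterocyte RNA. Sox9 had 0.214 and 0.133 counts per Epcam count in libraries labelled knockout, against 0.192 and 0.188 in libraries labelled control. Onecut2 had 0.371 and 0.167, against 0.18 and 0.365. For both, the groups overlapped: knockout replicate 1 was above both controls and knockout replicate 2 below both. The ratios of group geometric means were 0.885 for Sox9 and 0.97 for Onecut2. Slc4a4 had 0.87 and 0.586 counts per Epcam count under the knockout label, against 0.145 and 0.224 under the control label. Car2 had 0.334 and 0.306, against 0.0688 and 0.0988, and Cftr 0.0906 and 0.0981, against 0.0278 and 0.0404. The secretion genes were thus 2.81 to 3.96 times higher relative to Epcam in the libraries labelled knockout, by geometric means. With the adherens junction gene Cdh1, which itself fell by 1.80 ± 0.25, in place of Epcam the range was 3.06 to 4.32. Both bases were taken with their own falls known, and a ratio rises when its base falls. Neither base is particular to ducts, so these ratios are not levels per duct cell. The acinar and islet marker sums given above were also lower under the knockout label. The part of each cell type in the Epcam and Cdh1 counts was not tested. The exact two-sided permutation p was 0.333 for each secretion gene with either base, again the smallest possible. Pkhd1, Hes1, Onecut1 and Bicc1 lay in between, with ratios of group geometric means per Epcam count from 1.41 to 1.82, and the groups overlapped for Pkhd1 and Hes1. Per Cdh1 count the ratios of these genes ran from 1.54 to 1.98 and the groups did not overlap. For Hes1 they were narrowly apart, at 0.28 and 0.15, against 0.144 and 0.117. Per Epcam count the knockout replicates differed most for Bicc1, at 2.42 and 1.09, against 0.749 and 1.07 in controls.

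**Figure D3:**
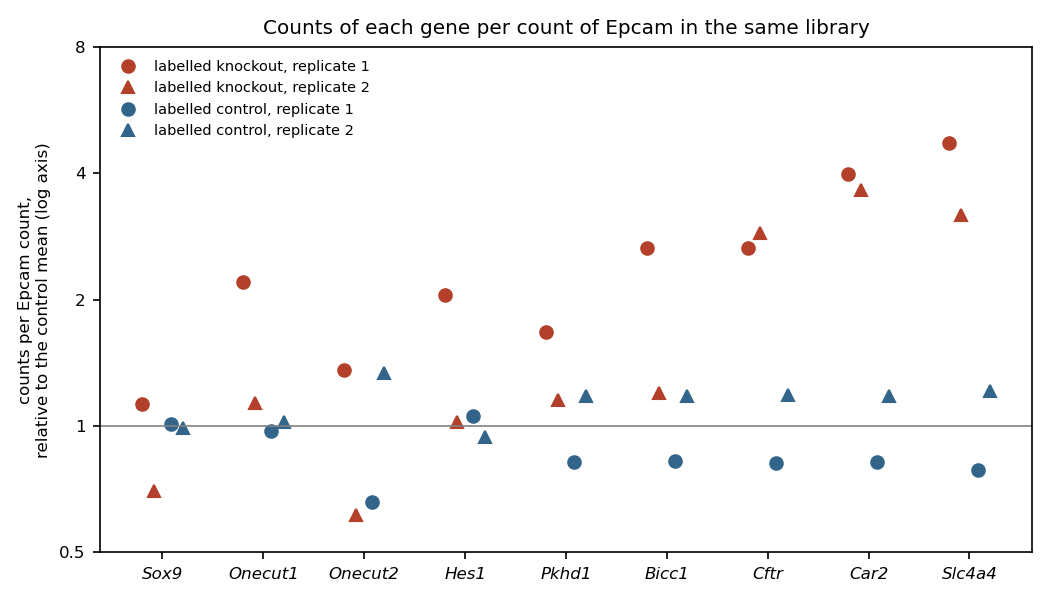
Counts of each of the 9 genes per count of Epcam in the same library, divided by the mean of the 2 control libraries (log axis; red for libraries labelled knockout, blue for control, circles for replicate 1 and triangles for replicate 2). Cftr, Car2 and Slc4a4 stand above both controls in both knockout libraries, for Car2 with 0.334 and 0.306 counts per Epcam count against 0.0688 and 0.0988, while for Sox9 and Onecut2 knockout replicate 1 lies above both controls and knockout replicate 2 below both.

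Levels of different genes were compared as CPM per kilobase of annotated exons. In libraries labelled knockout the order was Bicc1 (17.2 ± 3.12), Car2 (10.6 ± 3.35), Hes1 (9.24 ± 1.04), Slc4a4 (5.18 ± 0.537), Sox9 (3.19 ± 0.143), Pkhd1 (1.32 ± 0.157), Onecut2 (1.21 ± 0.217), Cftr (0.996 ± 0.424) and Onecut1 (0.55 ± 0.0477 CPM per kilobase; SD, n = 2). In libraries labelled control it was Bicc1 (31 ± 3.33), Hes1 (21.1 ± 4.73), Sox9 (11.9 ± 1.82), Car2 (8.79 ± 1.01), Slc4a4 (4.32 ± 0.699), Onecut2 (4.2 ± 1.47), Pkhd1 (3.07 ± 0.331), Onecut1 (1.14 ± 0.12) and Cftr (1.12 ± 0.136). Sox9 thus stood below Car2 and Slc4a4 under the knockout label and above both under the control label. Neighbours whose libraries overlapped were Car2 and Hes1, Pkhd1 and Onecut2, and Onecut2 and Cftr under the knockout label, and Slc4a4 and Onecut2, Onecut2 and Pkhd1, and Onecut1 and Cftr under the control label. The exon lengths join all annotated isoforms, so a gene used mainly in a short form is understated. Onecut1 is understated as well if reads in the bases it shares with Gm20649 were left uncounted, so its place in both orders is uncertain.

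Most other genes of duct and epithelial identity were lower under the knockout label. edgeR called 16 of the 22 listed genes lower and 1 higher and left 5 uncalled, all 22 being tested, which is 72.7% lower where 9.95% of all tested genes were. Their median log2 fold change was −1.61, with quartiles at −1.92 and −1.10. Prom1, a membrane protein of the duct surface, was at 28.5 and 29.2 CPM in libraries labelled knockout, against 84.6 and 81 CPM in libraries labelled control, and fell by 1.52 ± 0.10 (edgeR adjusted p = 0.00221). The luminal mucin Muc1 fell by 2.03 ± 0.15 (edgeR adjusted p = 0.00315), as did the tight junction gene Cldn4, by 2.42, and the keratin Krt7, by 1.94. Prox1 was the 1 gene that rose, by 0.60 ± 0.13 (edgeR adjusted p = 0.0351); its product is a homeodomain factor also made by lymphatic endothelium, and its call was lost whichever library was left out. All 5 uncalled genes were higher in knockout replicate 2, the library with enterocyte RNA, than in knockout replicate 1: Cldn7 (31.5 and 9.92 CPM), Tspan8 (26.4 and 9.42 CPM), Elf3 (22.6 and 9.71 CPM), Cldn3 (18.2 and 8.45 CPM) and Tstd1 (4.55 and 3.37 CPM). That order was not particular to them, since called genes such as Epcam (103 and 59.7 CPM) and Cdh1 (116 and 72.4 CPM) also had it. Other called genes, such as Krt7 (45.8 and 55.3 CPM), had the reverse order. The part of knockout replicate 2 in the missing calls was not tested. Without knockout replicate 2 the number of duct and epithelial genes that fell was 19, and without control replicate 1 it was 9.

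Among 35 other genes of ductal ion and fluid transport, 33 passed the filter, and edgeR called 8 of them lower and 2 higher, leaving 23 uncalled. That is 24.2% lower and 6.06% higher, where 9.95% and 12.1% of all tested genes were, with a median of −0.25. Both potassium channel genes that work as a pair, Kcnq1 (7.16 and 6.64 CPM in libraries labelled knockout, against 20.8 and 18.3 CPM) and its partner subunit Kcne3 (6.02 and 6.95, against 14.3 and 17.2 CPM), fell by 1.50 ± 0.17 and 1.28 ± 0.20 (edgeR adjusted p = 0.00755 and 0.0144). Slc12a2, the chloride loader NKCC1, fell by 0.78 ± 0.10 (edgeR adjusted p = 0.00924). Sctr encodes the receptor for secretin, the hormone that starts duct secretion, and was looked at after the values were seen. It was at 13.4 and 11.5 CPM in libraries labelled knockout, against 29.6 and 19.5 CPM in libraries labelled control (−0.98 ± 0.24; edgeR adjusted p = 0.0456).

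The genes that rose were Car4, a membrane-bound carbonic anhydrase, at 11.7 and 24.1 CPM in libraries labelled knockout, against 2.87 and 2.97 CPM in libraries labelled control (2.61 ± 0.39; edgeR adjusted p = 0.0139), and the water channel Aqp1, at 310 and 220 CPM, against 116 and 156 CPM (0.96 ± 0.23; edgeR adjusted p = 0.042). Car4 was highest in the library that carried enterocyte RNA, but knockout replicate 1 was also above both controls. Aqp1 is abundant in capillary endothelium, and of the 6 endothelial markers 2 were called higher, with a median log2 fold change of 0.31. The part of either source in these rises was not tested. The anion exchangers that work beside CFTR at the lumen did not pass. Slc26a6 was at 7.09 and 22.7 CPM under the knockout label, against 7.78 and 6.57 CPM, and Slc26a3 at 0.645 and 9.52, against 0.318 and 3.68 CPM. In both, knockout replicate 2 was the high library. The intestinal exchanger Slc9a3, which missed the filter on low counts, was at 39.6 CPM in knockout replicate 2 and at most 0.0837 CPM in the others. Without control replicate 1 the transport list had 1 gene lower, and the calls of Car4 and Aqp1 were lost. Without control replicate 2 it had 5 lower and 1 higher, and without knockout replicate 1 it had 6 higher.

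Of 25 other cilium and cyst genes, 4 fell, 1 rose and 20 did not pass (edgeR). That is 16% lower and 4% higher, where 9.95% and 12.1% of all tested genes were, with a median of −0.24, so the share lower is not far from that of all genes. Among those that fell were Kif3a, a motor of cilium assembly (−0.94 ± 0.13), Dzip1l, a transition zone gene of polycystic kidney disease (−1.17 ± 0.20), and Anks6 (−0.90 ± 0.17), with edgeR adjusted p = 0.011, 0.0188 and 0.0226. ANKS6 is a cystic disease protein known to act with bicaudal C in the kidney, and its gene was at 10 and 8.7 CPM in libraries labelled knockout, against 16.9 and 18 CPM in libraries labelled control. Ift140, a subunit of the retrograde transport complex, rose by 0.49 ± 0.12 (edgeR adjusted p = 0.0418). The polycystin genes did not pass, with Pkd1 at 266 and 227 CPM under the knockout label, against 147 and 307 CPM, and Pkd2 at 147 and 120, against 180 and 205 CPM (log2 fold changes 0.12 ± 0.35 and −0.53 ± 0.15; edgeR adjusted p = 0.836 and 0.0579). All 4 falls lost their call without control replicate 1, and 1 gene fell without control replicate 2 and 2 without knockout replicate 2. The call of Ift140 was lost without either control or without knockout replicate 1.

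Of 26 other Notch pathway genes, 25 passed the filter, and edgeR called 4 of them lower and 2 higher, leaving 19 uncalled. That is 16% lower and 8% higher, where 9.95% and 12.1% of all tested genes were, with a median of 0.06, so neither share is far from that of all genes. Heyl, a Notch target of the same repressor family as Hes1, was at 20.8 and 17.1 CPM in libraries labelled knockout, against 44.2 and 48.3 CPM in libraries labelled control, and fell by 1.29 ± 0.15 (edgeR adjusted p = 0.00784). The ligand Jag1 fell by 0.59 ± 0.10, the co-activator Maml3 by 0.93 ± 0.18 and the receptor-cutting protease Adam10 by 0.52 ± 0.11 (edgeR adjusted p = 0.0181, 0.0243 and 0.0295). The ligand Dll4, typical of endothelium, was at 16.5 and 18 CPM under the knockout label, against 7.23 and 8.37 CPM, and rose by 1.15 ± 0.17 (edgeR adjusted p = 0.0142). Mfng, a glycosyltransferase that modifies Notch receptors, rose by 1.23 ± 0.15 (edgeR adjusted p = 0.00839). The receptors Notch1, Notch2, Notch3 and Notch4 and the DNA-binding partner Rbpj did not pass, nor did the target Hey1, at 9.53 and 8.42 CPM under the knockout label, against 8.96 and 11.1 CPM. The number that fell was 2 without control replicate 1, without control replicate 2 or without knockout replicate 2. Both rises lost their call without control replicate 1, whereas 4 genes rose without knockout replicate 2.

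**Figure D4:**
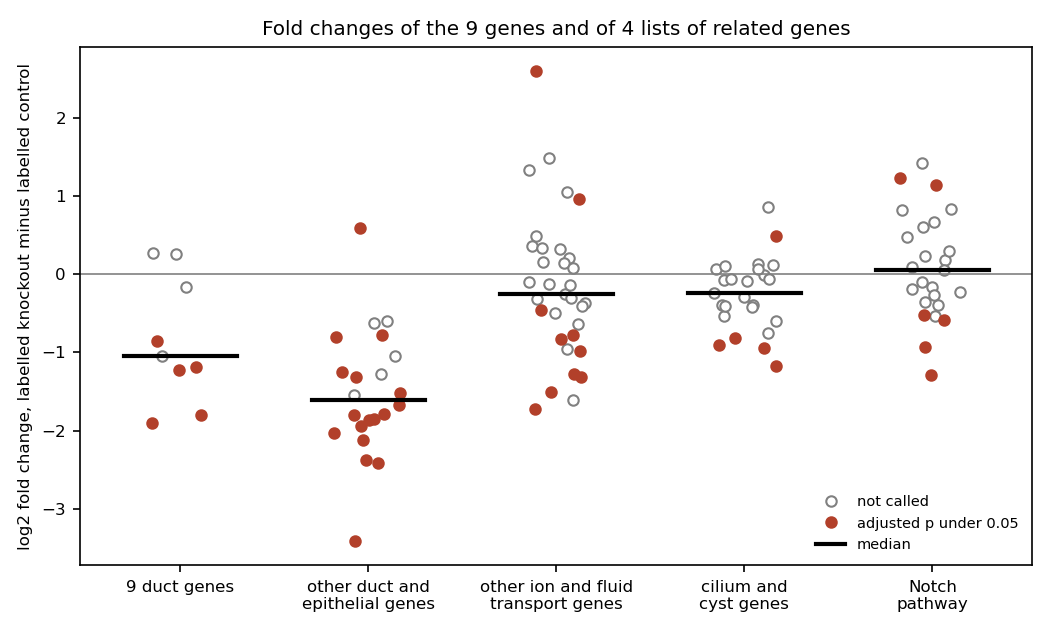
Log2 fold change, labelled knockout minus labelled control, of the 9 genes and of every tested gene in 4 lists of related genes (points, red where the edgeR adjusted p is under 0.05; horizontal bars are medians). The medians are −1.05 for the 9 genes, −1.61 for other duct and epithelial genes, −0.25 for other transport genes, −0.24 for cilium and cyst genes and 0.06 for Notch pathway genes.

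The 5 protein-coding genes whose log2 CPM profile over the 4 libraries was nearest to the mean profile of the 9 genes were Thnsl1, Cttnbp2nl, Pknox2, Col27a1 and Fam171b, by Euclidean distance of centred profiles (0.0178 to 0.0703) among 10955 candidates of at least 10 CPM. Each fell, by 0.83 to 0.87 on the log2 scale. That fall and its size follow from how the genes were picked, since the mean profile is itself lower under the knockout label. The 4 libraries in 2 groups leave little room for profiles to differ, and the mean profile blends genes that fell with genes that did not.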

How the data were processed

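RNA was extracted with TRIzol and the VAHTS Universal V6 kit served for libraries, per the labels' protocols. The submitters' processing notes name GRCm38, STAR 2.7.6a, featureCounts 2.0.1, and the helper tools SAMtools 1.7, Trim Galore 0.6.6 and FastQC 0.11.9. The files hold raw whole-number counts by gene symbol, per the file headers and the values, as the authors deposited them. For the annotation, the strand setting and reads with several alignments, the sources used here give nothing. Positions and exon lengths come from GENCODE M21 (GRCm38), matched by symbol. In it, exons of Onecut1, Cftr, Pkhd1 and Bicc1 overlap another listed gene. The overlap at Onecut1 is with a gene on the same strand and the others are with antisense genes. Of these neighbours, only the one at Bicc1 had counts (5 to 22); with no strand setting given, whether strand was used to separate them is unknown.

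Groups and replicate numbers came from the sample titles. Tests used edgeR 4.0.16 (R 4.3.3) with filterByExpr (19134 genes kept), TMM scaling (factors 0.962 to 1.05) and a quasi-likelihood fit on group alone. Benjamini-Hochberg adjustment ran over all tested genes, with a threshold of 0.05. The step was tested on simulated counts with known changes, balanced in direction and in far fewer genes than were called here. That setting does not show how the step behaves with shifts as broad as these. The SE was derived from the fold change and its F statistic. Log2 CPM used a prior count of 2. Replicates differed beyond sampling noise (chi-square per degree of freedom 32.5 and 46.2), so each library counted once. Alternatives used DESeq2 1.42.0, limma-voom (limma 3.58.1), other scalings and filters, the replicate number as a block, and each library left out in turn. A group left with 1 library is then assumed to vary like the other.

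The 9 genes and the lists were chosen with earlier results of these data known. By rule the text names the 9 genes, Psmd14, the 4 called genes of each list with the smallest p, every called gene in a direction with at most 5, the 5 nearest profiles and the most abundant marker of each cell type. Some genes the rule would name are not reported here. Sctr, Epcam, Cdh1, the anion exchangers, polycystins, Notch receptors and other genes beside them were added after their values were seen.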

Additional observations from a re-analysis of the deposited data

How the results depend on the processing

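The 5 genes called lower kept their direction under all 12 alternatives, and Sox9, Onecut2 and Pkhd1 also kept their call; the losses of Hes1 and Bicc1 came with a library left out, given above with the 2 alternatives that called Onecut1. Slc4a4 stayed above 0 and uncalled. With 1 library left out, Cftr ranged from −0.68 to 0.21 and Car2 from −0.09 to 0.56, so both turned direction; the cause was not tested. Of all genes, 424 to 1696 were then lower and 702 to 2338 higher, against 1904 and 2320, the fewest without control replicate 1. Leaving a library out also leaves fewer residual degrees of freedom. Lower counts then ran from 3 to 5 for the 9 genes, 9 to 19 for duct and epithelial genes, 1 to 8 for transport, 0 to 5 for cilium and cyst and 2 to 3 for Notch genes. Higher counts ran from 0 to 6 for transport, 0 to 1 for cilium and cyst and 0 to 4 for Notch genes, and were 0 throughout for duct and epithelial genes. With library totals only, 5 transport genes were higher, 64.9% of all calls were higher in place of 54.9%, and the median over all genes was 0.10; no direction among the 9 genes changed. DESeq2 called 5 transport, 2 cilium and cyst and 4 Notch genes higher. Without a low-count filter 0 cilium and cyst genes were higher. The labels give replicate numbers without saying what they share, and the deviations of same-numbered libraries had a correlation across genes of 0.0282. With the replicate number as a block, the count of the 9 genes called lower stayed at 5, 1432 of all genes were lower and 1960 higher, and higher calls were 0 for duct and epithelial genes, 1 for transport and 0 for cilium and cyst genes. Onecut1 had the fewest counts of the 9 genes, at 62 to 111 per library.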
